A study of Mus musculus with 30 samples.

Results

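The 9 genes Gfap, Aldh1l1, Aqp4, Slc1a2, Slc1a3, Glul, Aldoc, Atp1b2 and Fgfr3 are widely used to recognise astrocytes, and they were taken by name from the 24421 genes listed for every library. They were followed through 30 libraries of polyadenylated RNA, 1 per sample, from bulk mouse tissue at postnatal day 70. Of these, 28 came from cortical brain tumours labelled glioblastoma and 2 from normal cortex of mice labelled wild type. The tumours carried the fluorescent protein mCherry as control (3 libraries), wild-type EGFR, the epidermal growth factor receptor (3), or EGFR with a single amino acid change: A289I (5), A289V (4), R108G (3), R108K (4), R222C (3) or T263P (3). The labels used here do not say how the tumours were started, what else they carried, or which promoter and cell type drove the receptor. Each variant was represented by tumours of several mice according to the series' design text. The labels do not tie single libraries to single mice, so p-values measure the spread between these libraries.

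Astrocytes keep the fluid around neurons in balance. They take up glutamate after synaptic release, turn it into glutamine, clear potassium, and move water at the end-feet that wrap blood vessels. When tissue is injured, or when a tumour grows, they become reactive, which is classically seen as more of the filament protein GFAP. Glioma cells can carry astrocyte genes themselves, and several of the 9 genes are also active in neural stem cells. In bulk tissue, fewer cells of a type and less RNA per cell cannot be told apart.

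Levels are given as RPM, read counts scaled for library size so that they compare between libraries. Recovered reads ranged from 2784129 to 24475215 per library, so 1 read was worth 0.0387 to 0.383 RPM, far below the levels of the 9 genes. All 9 were among the 15824 genes that passed the filter on low values (at least 1 RPM in at least 3 libraries). Differences are on the log2(RPM + 1) scale with their standard error (SE), and adjusted p is that of limma with Benjamini-Hochberg adjustment over all 15824 genes (threshold 0.05). Each sample title ends in a number, called the library number here, and the titles do not say what it counts. For this report the numbers were split into 3 ranges, below 20, 20 to 37 and above 37. All A289I and R108G libraries lay in the last range and both cortex libraries in the middle one, which held the 12 tumours compared with them within that range.

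Sequence is shown for Glul and Slc1a2, which fell most clearly against cortex, and for Gfap, which rose, so that the start regions of genes moving in opposite directions can be set side by side. The promoter table (RefSeq, GRCm38.p6, the sequence of mm10) held 7 of the 9 genes. The windows are the 150 bases before the start, 5′ to 3′ on the gene's strand, and for Slc1a2 only bases 150 to 83 before it, up to the first annotated untranslated exon. They lie at chr1:153899779-153899928 on the plus strand (Glul), chr2:102706288-102706355 on the plus strand (Slc1a2) and chr11:102897201-102897350 on the minus strand (Gfap). The Slc1a2 and Gfap windows are inside the genes as GENCODE M21 draws them, since longer transcripts start further upstream. Capitals mark TTGGC, the half-site of nuclear factor I, a family of transcription factors, on either strand (GCCAA when read on the other).
Glul: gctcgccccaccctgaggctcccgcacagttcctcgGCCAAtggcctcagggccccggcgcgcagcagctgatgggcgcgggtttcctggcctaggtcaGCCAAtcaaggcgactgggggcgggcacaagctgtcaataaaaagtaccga
Slc1a2: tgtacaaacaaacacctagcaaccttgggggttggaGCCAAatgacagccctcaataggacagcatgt
Gfap: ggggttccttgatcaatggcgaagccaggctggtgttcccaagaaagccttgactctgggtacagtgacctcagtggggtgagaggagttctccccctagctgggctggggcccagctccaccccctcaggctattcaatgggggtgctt

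The half-site began 114 bases before the start in both Glul and Slc1a2, with another at 51 bases in Glul, and no match lay in the Gfap window. Aldoc, which also fell, held 1 at 146 bases before the first of its 2 starts, and Aldh1l1, Fgfr3 and Slc1a3 held none. TTGGC is short and was present in 28.99% of all 32851 promoters of that length. The STAT palindrome TTCNNNGAA was found in Slc1a3 (96 bases before the start) and before the second start of Aldoc (124 and 83 bases), against 4.09% of all promoters, and in none of the other 5 genes. TATAAA (7.57% of promoters) was in none of the 7, and the SOX core ACAAT (17.4%) only in Slc1a3, at 112 bases. Both strands were searched, and the motifs do not overlap in these matches. The matches describe letters in these windows and nothing more.

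**Figure D1:**
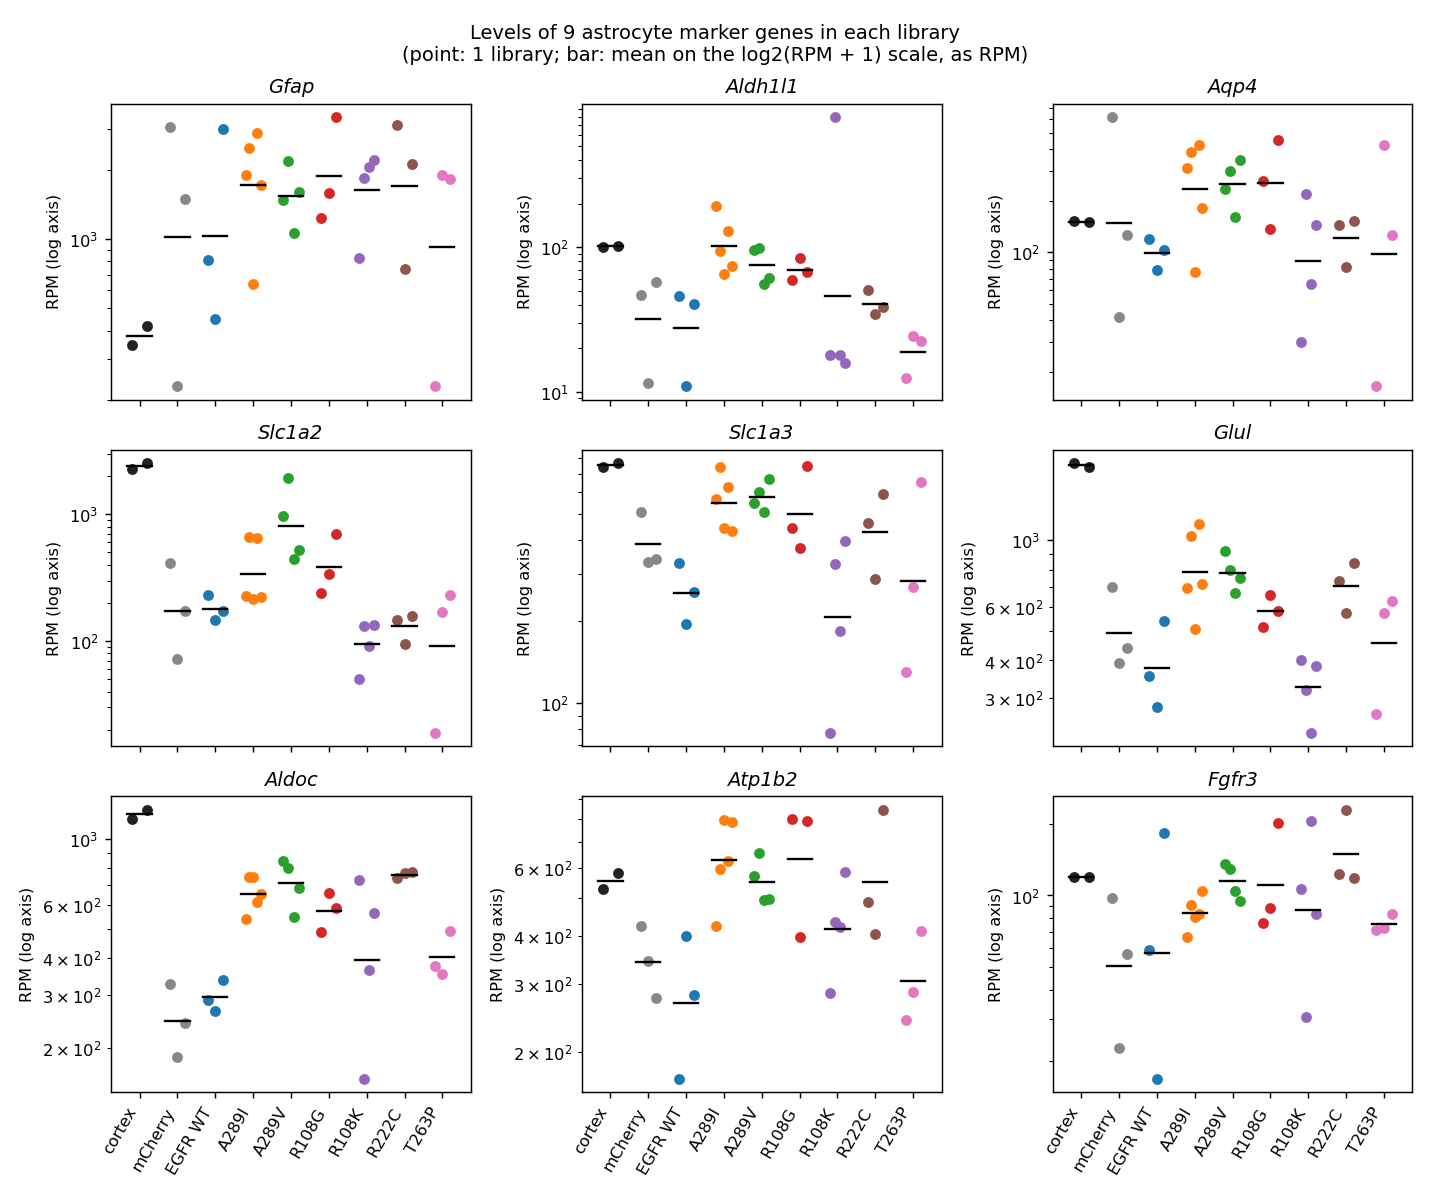
Each panel shows 1 astrocyte marker gene, with RPM on a log axis and the 9 groups across, a point for each library and a bar at the group mean on the log2(RPM + 1) scale. In Slc1a2, Glul and Aldoc all 28 tumours lie below both cortex libraries, in Gfap 26 lie above them, and in Aldh1l1 a single R108K tumour stands at 795 RPM.

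The first comparison asked how the 9 genes stood in tumours against normal cortex. Slc1a2, Glul and Aldoc fell and Gfap rose, and the other 5 did not pass the test. These 4 of 9 called genes stand against a background of 47.4% of all tested genes called in the same comparison (7501 of 15824), so the share of the 9 is near that of genes in general and is not a result about them. The median difference of the 9 was -1.002, with 8 of 9 means lower in tumours, beside a median of 0.03 over all tested genes. Tumours are taken here as the mean of the 8 tumour groups. How many of all tested genes had every tumour below or above both cortex libraries was not counted. Such separations are given below as descriptions only.

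Slc1a2 encodes GLT-1, the glutamate transporter that carries most glutamate uptake in the forebrain. Its level was 2282 and 2513 RPM in the cortex libraries. In the 28 tumours it had a lowest value of 19.0, a median of 217 and a highest value of 1922 RPM. The median tumour was 11.05-fold below the cortex mean, and no tumour reached either cortex library. The difference was -3.51 ± 0.65 (adjusted p = 0.000123). The highest tumours were A289V libraries 2 and 1 (1922 and 971 RPM), and the lowest was T263P library 1.

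Slc1a3 encodes GLAST, the other glial glutamate transporter, which is also strong in radial glia and neural stem cells. It was at 741 and 765 RPM in cortex and between 77.8 and 751 RPM in tumours, with a median of 435 RPM. Of the 28 tumours, 26 lay below both cortex libraries and the highest 2, A289I library 2 (745 RPM) and R108G library 3 (751 RPM), between them. Its difference of -1.002 ± 0.431 missed the threshold (adjusted p = 0.0583, 95% interval -1.89 to -0.11). It passed when any of 5 single libraries was left out, among them R108K library 1, the lowest (lowest adjusted p = 0.0231). The ratio of Slc1a2 to Slc1a3 in RPM, in which gene length cancels between samples, was 3.08 and 3.29 in cortex and had a median of 0.59 in tumours. The tumours ranged from 0.146 to 3.20. A289V library 2 lay within the cortex range, and the next tumour had 1.78.

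Glul encodes glutamine synthetase, which joins ammonia to the glutamate taken up. It was at 1797 and 1744 RPM in cortex and at 231 to 1132 RPM in tumours, with a median of 578 RPM, 3.06-fold below the cortex mean. All 28 tumours were below both cortex libraries. The difference was -1.72 ± 0.29 (adjusted p = 3.99e-05). Inside groups Glul had a pooled SD of 0.40 on the log2 scale, beside a median of 0.43 over all tested genes. Among 1000 genes of similar level, its SD was above 61.8%.

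Of 13 other genes of the glutamate and GABA cycle, 7 fell and none rose in tumours (median difference -0.90). For this and the lists that follow, the 47.4% of all tested genes called in this comparison is the background, and a share near it says nothing particular of a list. Gad1 and Gad2, the enzymes that make GABA in inhibitory neurons, fell by 3.35 and 2.63. Gad1 and Gad2 also stand in the list of neuron markers. All 25 neuron markers fell in the same comparison (median difference -3.56). Their mean log2 level was 8.68 to 8.77 in cortex and 2.11 to 8.23 in tumours, and none of the 25 was among the 9 astrocyte genes.

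Aldoc encodes aldolase C, a glycolytic enzyme that marks forebrain astrocytes. It was at 1170 and 1252 RPM in cortex and between 157 and 845 RPM in tumours, with a median of 557 RPM. Again all 28 tumours were below both cortex libraries, and the difference was -1.37 ± 0.31 (adjusted p = 0.000753). Aldh1l1 encodes a cytosolic enzyme of folate metabolism and is often used to label all astrocytes. It was at 101 and 102 RPM in cortex and had a median of 52.9 RPM in tumours, of which 25 lay below and 3 above both cortex libraries. Its difference of -1.16 ± 0.82 did not pass (adjusted p = 0.252), and 1 library decided that. Without R108K library 2 it was -1.33 ± 0.44 (adjusted p = 0.0161).

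Among 16 tested folate and glycolysis enzymes, 6 rose and 6 fell. The 4 largest changes were all rises in folate enzymes. Aldh1l2, the mitochondrial relative of Aldh1l1, rose by 3.74 ± 0.45, and the one-carbon enzymes Mthfd2, Shmt1 and Shmt2 rose by 2.74, 2.56 and 2.24. Aldh1l2 was at 4.51 RPM on average in cortex and at 28.5 to 152 RPM in tumours without overlap. Aldoa, the aldolase found in most cells and named after its value was seen, fell by 1.25 ± 0.32. The 24 cell cycle genes all rose in this comparison, with a mean log2 level of 1.61 to 1.70 in cortex and 4.63 to 6.94 in tumours. Their part in the changes of the folate enzymes was not tested.

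Gfap encodes the intermediate filament of astrocytes. It was at 345 and 418 RPM in cortex and had a lowest value of 229, a median of 1774 and a highest value of 3394 RPM in tumours. Of the 28 tumours, 26 lay above both cortex libraries. The exceptions were mCherry library 2 and T263P library 1, each at 229 RPM. The rise of 1.86 ± 0.75 passed narrowly (adjusted p = 0.0439), and it was lost when any 1 of 11 libraries was left out, either cortex library among them (highest adjusted p = 0.236, without 1 library). It was also lost with no filter on low values (adjusted p = 0.0625), when the 3 ranges entered the fit (0.0613) and without A289V libraries 1 and 2 (0.0574), and it passed within the range 20 to 37 (2.19, 0.0277), each by limma.

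Set against each other, Gfap and Slc1a2 separated tumours from cortex in every library. Gfap over Slc1a2 was 0.151 and 0.166 in cortex and 1.14 to 22.7 in tumours, with a median of 7.59. A289V had the lowest median among the tumour groups (1.98, range 1.14 to 3.06), and R108K ratios were 14.2 to 22.7. Per kilobase of exon, the order of the genes changed as well. In cortex, mean levels were highest for Glul (634 RPM per kb), Aldoc (407), Slc1a2 (198), Atp1b2 (195) and Slc1a3 (171), with Gfap sixth at 93.6. Over the 28 tumours, Gfap was first at 422 RPM per kb, followed by Glul (213), Aldoc (179) and Atp1b2 (173), and Slc1a2 was seventh at 28.2. Exon lengths were the union of the exons of a gene's protein-coding transcripts in the basic GENCODE set, which is long for Slc1a2 (12.1 kb).

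Of 24 genes induced in reactive astrocytes, 16 rose and none fell against cortex (median difference 2.28). Among tumours their mean did not track Gfap in every library: mCherry library 2, with Gfap at 229 RPM, had a mean log2 level of 6.19, and wild-type EGFR library 3, with Gfap at 3011 RPM, had 4.28. The largest were Cxcl10, a chemokine (6.39 ± 0.96), C3, a complement component (5.62 ± 0.77), Lcn2, a lipocalin (5.08 ± 1.18), and Vim, the filament vimentin (4.56 ± 0.40). Cxcl10, C3 and Lcn2 were all below 1 RPM in both cortex libraries, and Lcn2 had no read in 1 of them, so their fold changes rest on the pseudocount. Vim was at 44.8 and 49.9 RPM in cortex and at 428 to 2652 RPM in tumours. Several genes of this list are also made by microglia, macrophages, vessels or glioma cells. Of 17 microglia and macrophage markers 12 rose and 1 fell, and of 14 markers of oligodendrocyte precursors, a common state of such tumours, 12 rose and none fell. Their part in the rise of the reactive genes was not tested.

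A list of 24 further astrocyte genes moved the other way, with 13 lower, none higher and a median difference of -1.44. Gjb6, a connexin of astrocyte gap junctions, fell by 3.50, Cldn10 fell by 3.35, the glypican Gpc5 fell by 3.20 and the glutamate receptor Grm3 fell by 3.04. Of 12 genes of neural stem cells and radial glia 7 rose and none fell, led by Tnc (3.86), Nes (3.80), Ptprz1 (2.98) and Fabp7 (2.34).

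Aqp4, Atp1b2 and Fgfr3 had tumours on both sides of the cortex level, evenly in Aqp4 and mostly below it in Atp1b2 and Fgfr3. Aqp4 encodes the water channel of astrocyte end-feet. It was at 152 and 150 RPM in cortex and between 16.5 and 615 RPM in tumours, where 14 tumours lay below, 13 above and 1 between the cortex libraries (difference -0.03, 95% interval -1.69 to 1.64). That interval is wide and includes changes of over 3-fold in either direction. Atp1b2 encodes the beta2 subunit of the sodium pump, also known as the glial adhesion molecule AMOG. Its difference was -0.33 (95% interval -0.95 to 0.29), with tumours at 170 to 846 RPM beside 529 and 580 RPM in cortex. For Atp1b2, 18 tumours lay below, 9 above and 1 between the cortex libraries. Fgfr3, a fibroblast growth factor receptor of astrocytes and their precursors, was at 120 RPM in both cortex libraries and at 16.8 to 230 RPM in tumours (difference -0.47, 95% interval -1.61 to 0.67). For Fgfr3, 21 tumours lay below and 7 above both cortex libraries.

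Among 13 partners of Aqp4 and Atp1b2 in potassium and water handling, 3 rose and 6 fell. Atp1b1, another beta subunit of the sodium pump, fell by 3.15. Aqp1 rose by 3.03, from a cortex mean of 0.955 RPM. Kcnj10, the potassium channel Kir4.1, rose by 0.52 ± 0.21 (adjusted p = 0.0435) and is named here after its value was seen. Around Fgfr3, 13 genes of the FGF pathway were tested (Klb was not), of which 4 rose and 3 fell. Spry1, an inhibitor of receptor signalling, rose by 3.12 and the decoy-like receptor Fgfrl1 rose by 2.42. The ligands Fgf9 and Fgf1 fell by 3.10 and 2.06.

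mCherry tumours alone, with 3 libraries against the same 2 cortex libraries, gave 3 called members, all lower, against a background of 38.3% of tested genes. Aldoc had a difference of -2.30 (adjusted p = 7.55e-05), Glul of -1.84 (0.000389) and Slc1a2 of -3.78 (0.000918), each by limma. With the mean of 25 neuron markers as a covariate, Glul (-0.84, adjusted p = 0.130) and Slc1a2 (-1.09, 0.294) no longer passed. All mCherry tumours lay below cortex in neuron level, so that level and the group cannot be told apart. Gfap was at 3066, 229 and 1493 RPM in these 3 tumours, so library 2 lay below cortex and the others above (1.42 ± 0.94, adjusted p = 0.240). Without that library Gfap passed (2.49, adjusted p = 0.0361), as it did without the 3 tumours of very high Met (0.0259), with the neuron covariate (3.69, 0.0217) and by DESeq2 (2.07, 0.0311). Met encodes a receptor tyrosine kinase and was at 4610 and 3853 RPM in wild-type EGFR libraries 1 and 2, at 6283 RPM in mCherry library 2, and at most at 437 RPM in any other library. Both comparisons share the cortex libraries.

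**Figure D2:**
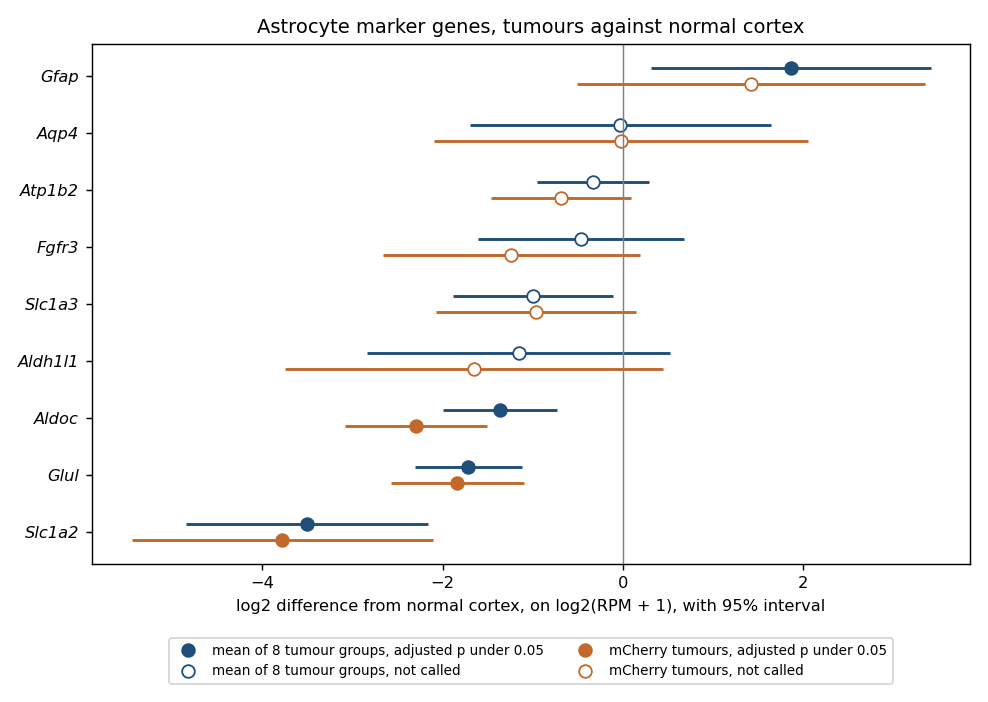
The log2 difference of each astrocyte marker gene from normal cortex is plotted with its 95% interval, for the mean of the 8 tumour groups and for mCherry tumours alone, with filled points where the adjusted p was under 0.05. Slc1a2, Glul and Aldoc lie to the left in both, Gfap lies to the right, and the interval of Aqp4 is centred near 0.

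The level of neuron markers moved with the fall of the glutamate genes. Across the 28 tumours, Slc1a2 followed the mean of the 25 neuron markers with Pearson's r of 0.89 and Spearman's rho of 0.80. Without the 2 tumours farthest from the median on the neuron axis, A289V libraries 1 and 2, r was 0.84, and within groups it was 0.82. For the other 8 genes r was lower, from 0.31 (Atp1b2 and Fgfr3) to 0.65 (Glul), with Gfap at 0.46. Aqp4, which did not pass against cortex, had 0.61, and Slc1a3 had 0.58. Within groups their r ran from -0.02 (Atp1b2) to 0.72 (Glul), with Gfap at 0.60, Aqp4 at 0.52 and Slc1a3 at 0.42. The points share library, depth and tissue piece, and r is given as a description. With the neuron mean as a covariate, the tumour difference of Slc1a2 was -0.66 (adjusted p = 0.498), that of Glul -0.66 (0.190) and that of Aldoc -0.82 (0.234), while Gfap was 4.26 (0.00427). No tumour reached the neuron level of cortex, so in this comparison the neuron level and the group cannot be told apart.

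**Figure D3:**
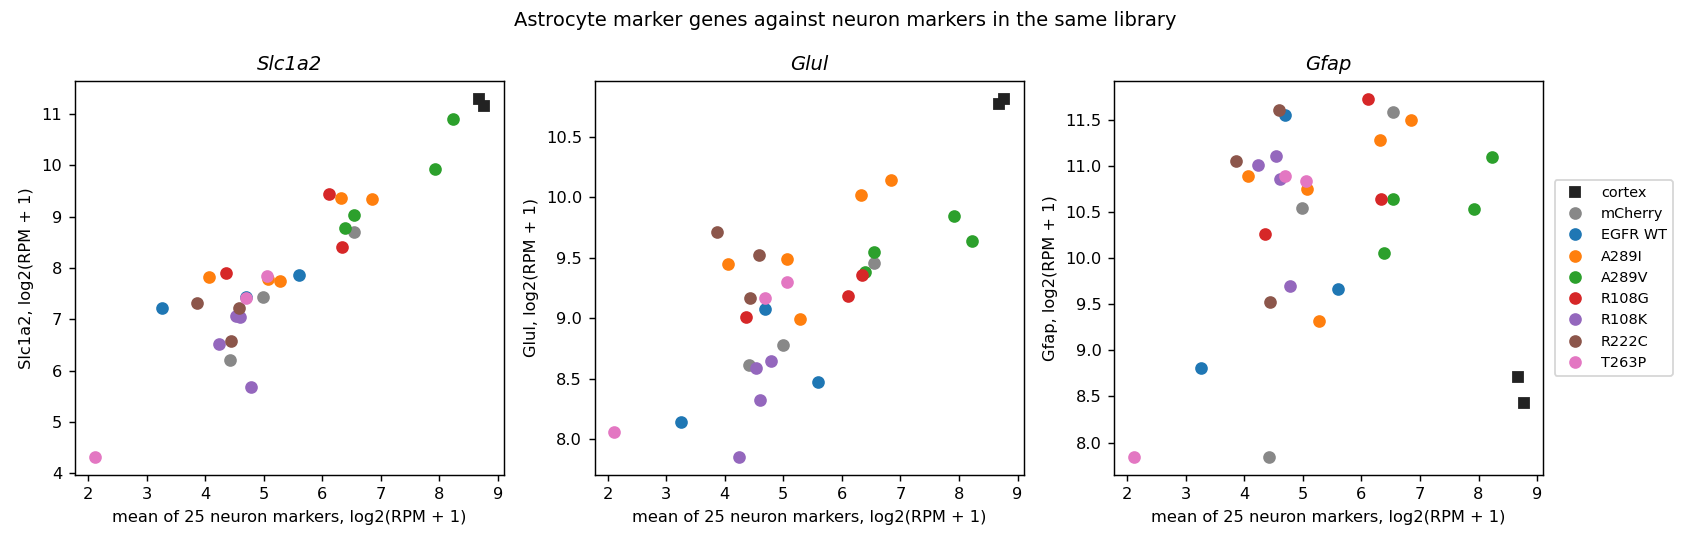
Each point is 1 library, coloured by group, with the mean log2(RPM + 1) of 25 neuron markers across and the level of Slc1a2, Glul or Gfap upward, cortex as squares. Slc1a2 rises along the neuron axis with A289V tumours nearest to cortex, Glul less tightly, and the cortex squares of Gfap lie below nearly all tumours.

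The next comparisons asked whether the receptor forms changed the 9 genes against mCherry tumours, which all share the same 3 control libraries. Aldoc was the only member called. The 3 mCherry libraries had 328, 186 and 243 RPM of Aldoc, the lowest group mean of all. A289I tumours had 541, 744, 749, 618 and 657 RPM, without overlap, and Aldoc rose by 1.42 ± 0.30 (adjusted p = 0.0357). A289V tumours had 845, 803, 548 and 684 RPM, also without overlap, and it rose by 1.53 ± 0.32 (adjusted p = 0.0279). The members called, 1 of 9 in each, stand against 0.607% of tested genes for A289I and 4.91% for A289V.

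R222C tumours, at 740, 769 and 773 RPM of Aldoc, were as far from mCherry, with a difference of 1.63 ± 0.34 at an unadjusted p of 6.39e-05, but the adjusted p was 0.203. R108G tumours had 489, 662 and 586 RPM (1.22 ± 0.34, adjusted p = 0.244). T263P tumours had 376, 352 and 493 RPM and did not overlap mCherry either (0.71 ± 0.34, adjusted p = 0.877). R108K was spread from 157 to 731 RPM, and wild-type EGFR, at 265 to 338 RPM, overlapped mCherry (0.27 ± 0.34, 95% interval -0.43 to 0.97). In 5 of the 6 variants, all but R108K, every tumour was above every mCherry library. The share of all tested genes with such a separation was not counted. The pooled 7 receptor forms differed from mCherry by 1.06 ± 0.26 in Aldoc (unadjusted p = 0.000312, adjusted p = 0.247).

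These calls depend on single libraries. The A289I call was lost without mCherry library 2 or 3 or any of A289I libraries 2 to 5, and the A289V call without mCherry library 2 or 3 or A289V library 1 or 2 (highest adjusted p = 0.136 and 0.154). A289I shares the range above 37 with 1 mCherry library only, and there the difference was 1.43 (adjusted p = 0.280). A289V shares the range below 20 with 2 mCherry libraries through 1 of its own, with 1.77 (adjusted p = 0.318).

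No member was called by limma in the other 6 comparisons with mCherry. The share of all tested genes called there was 0.0379% for the pooled receptor forms, 0% for wild-type EGFR, 0.0379% for R108G, 0.0695% for R108K, 0% for R222C and 0.00632% for T263P. The share of all tested genes at an unadjusted p under 0.05 is not given here, so counts at that level are descriptive. The members passing it were 1, 0, 2, 1, 2 and 1 in that order. edgeR called none of them, and DESeq2 called Aldoc for the pooled receptor forms and for R222C. Slc1a2 in A289V tumours came near the threshold against mCherry. It was at 971, 1922, 441 and 522 RPM, all above the mCherry values of 414, 72.8 and 173 RPM, with a difference of 2.21 ± 0.68 (adjusted p = 0.0552). The mean log2 level of the neuron markers was also higher, at 6.39 to 8.23 in A289V and 4.42 to 6.55 in mCherry, and with it as a covariate the difference of Slc1a2 was 0.67 (adjusted p = 0.713). Without A289V libraries 1 and 2 it was 1.46 (adjusted p = 0.713), and it passed without A289V library 3 or 4 or mCherry library 1, and by DESeq2.

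Against wild-type EGFR tumours, A289V was the only variant with called members. Slc1a2, Aldoc, Glul and Atp1b2 rose, 4 of 9, against a background of 13.7% of tested genes. Slc1a2 was at 232, 148 and 171 RPM with wild-type EGFR, below all 4 A289V tumours (2.16 ± 0.68, adjusted p = 0.0354). Aldoc rose by 1.26 ± 0.32 (adjusted p = 0.0144). Glul was at 919, 797, 668 and 748 RPM against 354, 281 and 540 RPM and rose by 1.04 ± 0.30 (adjusted p = 0.0245). Atp1b2 was at 572, 654, 496 and 497 RPM against 170, 400 and 282 RPM and rose by 1.04 ± 0.32 (adjusted p = 0.0301). None of these 4 genes overlapped between the groups. How many of all tested genes were separated in this way was not counted, so the separation is a description only. Slc1a3 (1.17, adjusted p = 0.0803), Aqp4 (1.32, 0.307), Aldh1l1 (1.41, 0.275), Fgfr3 (0.99, 0.256) and Gfap (0.57, 0.672) had higher means in A289V and did not pass in limma.

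Neuron markers differed between the 2 groups as well: 21 of 25 rose in A289V against wild-type EGFR and none fell (median difference 2.86). Their mean log2 level was 6.39 to 8.23 in A289V and 3.26 to 5.60 with wild-type EGFR, without overlap, and the first 2 A289V libraries were highest of all tumours. Because of that, neuron level and group cannot be told apart in this comparison. Cell cycle genes went the other way, with 13 of 24 lower and none higher. With the neuron mean as a covariate no member passed, and the difference of Slc1a2 was -0.02 (adjusted p = 0.998), that of Glul 0.24, that of Aldoc 0.84 and that of Atp1b2 1.06. None passed either without A289V libraries 1 and 2, where Slc1a2 differed by 1.40 (adjusted p = 0.483), nor without the 3 tumours of very high Met (2.23, adjusted p = 0.223). Leaving out A289V library 1, A289V library 2 or wild-type EGFR library 2 also ended all 4 calls, and edgeR kept Slc1a2, Aldoc and Glul. Within shared ranges of library numbers only Aldoc passed (1.296, adjusted p = 0.0328).

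Against the same background of 13.7% of tested genes, 5 of 24 further astrocyte genes rose and none fell, among them Gjb6 (3.18), Gpc5 (2.28) and Gja1 (2.21), which are connexins and a glypican of mature astrocytes. Of 24 reactive genes 3 fell and 1 rose, with S100a10 lower by -2.73, Emp1 by -1.74 and Vim by -1.65. Of the 13 potassium and water handling genes 4 rose and none fell, Atp1b1 by 2.10. Of the 13 genes of the glutamate and GABA cycle 2 rose and none fell, a share near the background, among them Slc38a3, which lets glutamine out of astrocytes (1.22).

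**Figure D4:**
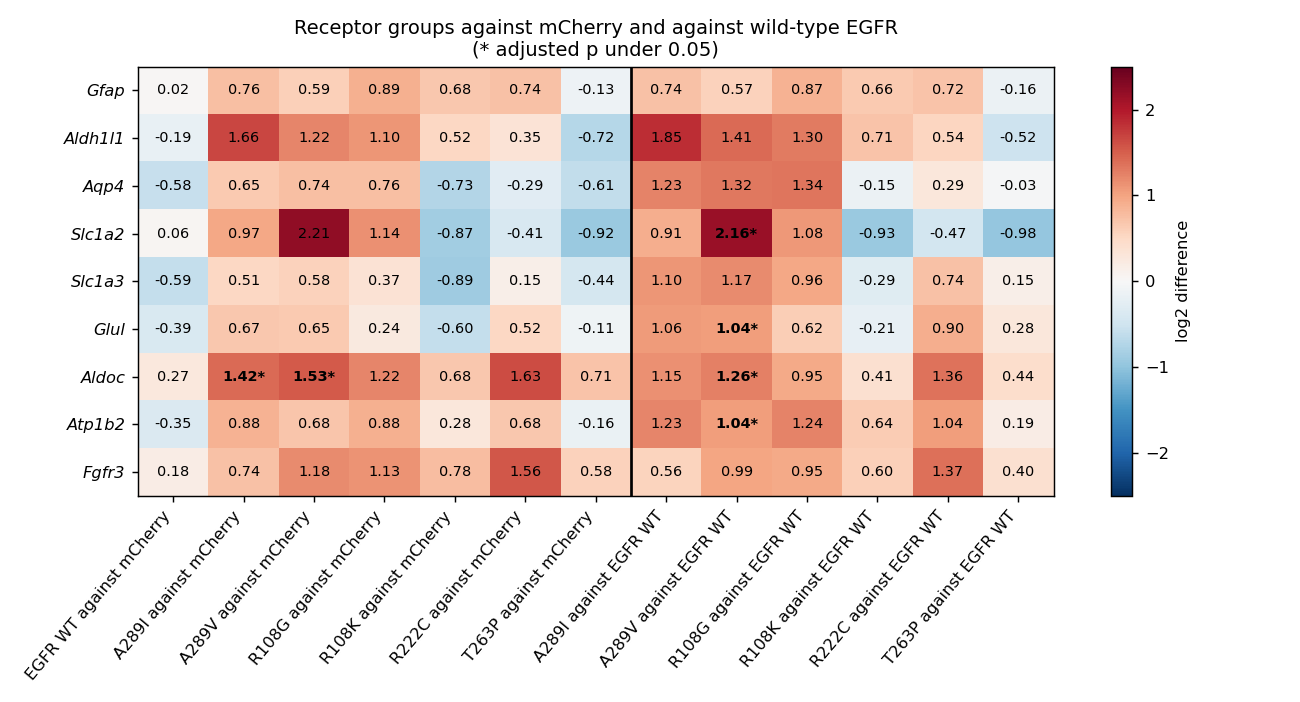
Rows are the 9 astrocyte marker genes and columns the receptor groups against mCherry (left of the line) and against wild-type EGFR (right), with the log2 difference in each cell and a star where the adjusted p was under 0.05. Stars stand in Aldoc for A289I and A289V against mCherry, and in Slc1a2, Glul, Aldoc and Atp1b2 for A289V against wild-type EGFR.

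In the remaining comparisons with wild-type EGFR limma called no member. The share of tested genes called was 0% for the 6 variants pooled, 0.335% for A289I and 0% for R108G, R108K, R222C and T263P. Members with an unadjusted p under 0.05 numbered 3, 5, 2, 0, 4 and 0 in that order. The shares above are at adjusted p and are no background for these counts. edgeR called none, and DESeq2 called Aldoc for the pooled variants, Aldoc, Atp1b2 and Glul for A289I, and Aldoc for R222C. In A289I the means of all 9 were higher than with wild-type EGFR (median difference 1.10), with Atp1b2 at 1.23 ± 0.30 (adjusted p = 0.0679), Aldoc at 1.15 ± 0.30 (0.0987) and Glul at 1.06 ± 0.29 (0.110) by limma. No library range holds both groups, so range and group cannot be told apart there.

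A289I and A289V, which change the same residue, gave no called member by limma (0% of tested genes called). The nearest was Slc1a2, lower in A289I by -1.25 (95% interval -2.48 to -0.02, adjusted p = 0.266, the only member with an unadjusted p under 0.05). For Aldoc the interval of the difference was -0.69 to 0.46. R108G and R108K, at the other shared residue, gave 0 called members and 0% of tested genes. At an unadjusted p under 0.05, 3 members passed, given without a matching share of all tested genes. Slc1a2 was at 239, 339 and 697 RPM in R108G and at 50.2, 130, 90.7 and 134 RPM in R108K, without overlap (2.01 ± 0.68, adjusted p = 0.371). Glul (0.83, adjusted p = 0.394) and Slc1a3 (1.26, 0.394) were the others. edgeR and DESeq2 called no member in either pair. All R108G libraries are numbered above 37 and all R108K libraries are not, so the difference and the range cannot be told apart.

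An F-test by limma over the 8 tumour groups called 4 members, Aldoc (adjusted p = 0.0111), Glul (0.0177), Slc1a2 (0.0189) and Atp1b2 (0.0301), against 10.3% of tested genes. None of the 4 passed without A289V libraries 1 and 2, or with the neuron mean as a covariate. Ordered by group mean, with cortex among the groups, most neighbours did not differ beyond their pooled SD. That gap was exceeded in 3 of 8 steps for Slc1a2, 2 each for Glul and Aldoc, 1 each for Gfap, Slc1a3 and Aldh1l1, and none for Aqp4, Atp1b2 and Fgfr3. For Gfap, Slc1a3 and Aldh1l1 the step was next to cortex and not between tumour groups. The same holds for 1 step each of Slc1a2 and Glul. In Aldoc the step lay between R108G, at 579 RPM on average, and T263P, at 407 RPM, besides that from cortex to R222C.

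The 9 genes differed in how much tumours of 1 group varied. The pooled SD within groups was 1.21 on the log2 scale for Aldh1l1, 1.19 for Aqp4 and 1.11 for Gfap, above 97.8%, 97.7% and 96.4% of all tested genes. Slc1a2 (0.96), Fgfr3 (0.81) and Slc1a3 (0.62) followed, and Aldoc (0.43), Atp1b2 (0.42) and Glul (0.40) were near the median of all tested genes. Among 1000 genes of similar level, the SDs of Aldoc, Atp1b2 and Glul were above 68.2%, 67.6% and 61.8%. In Aqp4 the 3 T263P tumours alone spanned 16.5, 423 and 127 RPM and the 3 mCherry tumours 615, 41.9 and 125 RPM. T263P library 1 had the lowest Gfap, Aqp4 and Slc1a2 of all tumours, and its neuron markers were the lowest too. mCherry library 2, with very high Met, was the lowest of its group in 8 of the 9 genes, with Atp1b2 the exception.

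Across the 28 tumours all 36 pairs of the 9 genes were positively correlated (r from 0.04 to 0.80, median 0.51). Within groups 29 remained positive, with a median r of 0.35, and Aldoc with Aldh1l1 was lowest at -0.56. Without the 2 tumours farthest from the median in Fgfr3, r turned negative for Fgfr3 with Aldh1l1 (-0.40) and with Aqp4 (-0.08). Those tumours were mCherry library 2 and wild-type EGFR library 2. Every other pair stayed positive without the 2 tumours farthest from the median in 1 of its genes. The points share library and depth scaling. Over the 12120 genes that averaged 5 RPM or more in tumours, the one most like the mean of the 9 was Clu, the secreted chaperone clusterin (r = 0.93), followed by Paqr7 (0.88), Slc39a12 (0.86), Prodh (0.84) and Plcd4 (0.84). Aqp4 was most like Mlc1 (0.87), Slc39a12 (0.86) and Adcyap1r1 (0.85), and Gfap most like Adcyap1r1 (0.80), Miat (0.77) and Slc39a12 (0.75). Slc1a2 was most like Agap2 (0.94), Arhgef4 (0.94) and Slc8a2 (0.93), and Slc1a3 most like Slc4a4 (0.86), Pygb (0.83) and Acot11 (0.82). Glul went with Clu (0.84), Prodh (0.83) and Daam2 (0.82), Atp1b2 with Slc38a3 (0.77), Hepacam (0.76) and Cntfr (0.75), Aldoc with Pdzd2 (0.80), Nipal3 (0.78) and Sorcs3 (0.78), Fgfr3 with Fmod (0.86), Susd5 (0.84) and Mmd2 (0.82), and Aldh1l1 with Atp13a4 (0.79), Olfml1 (0.79) and Slit2 (0.79).

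Aldh1l1 stood out in 1 tumour. R108K library 2 had 795 RPM, and the other 3 R108K tumours had 18.0, 18.0 and 15.8 RPM. The next highest tumour of any group, A289I library 1, had 192 RPM. That put Aldh1l1 3.95 above the median of the other 27 tumours on the log2 scale, rank 15 of 12540 genes in that library. None of the other 8 genes was raised to a like extent. R108K library 2 had the lowest Aldoc of all tumours (157 RPM), Gfap at 1853 RPM beside a tumour median of 1774, and Aqp4 at 220 RPM beside 148, the highest Aqp4 of its group. Aldh1l1 lies at chr6:90486427-90600203 on the plus strand of mm10. Of the 24 nearest measured genes on the chromosome, 22 were within 2-fold of the tumour median in that library (median log2 ratio 0.06). Mgll, at 347 RPM against a median of 186, was the only neighbour highest of all 28 tumours, and Fbln2 was 2.64 above the median and second among them.

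**Figure D5:**
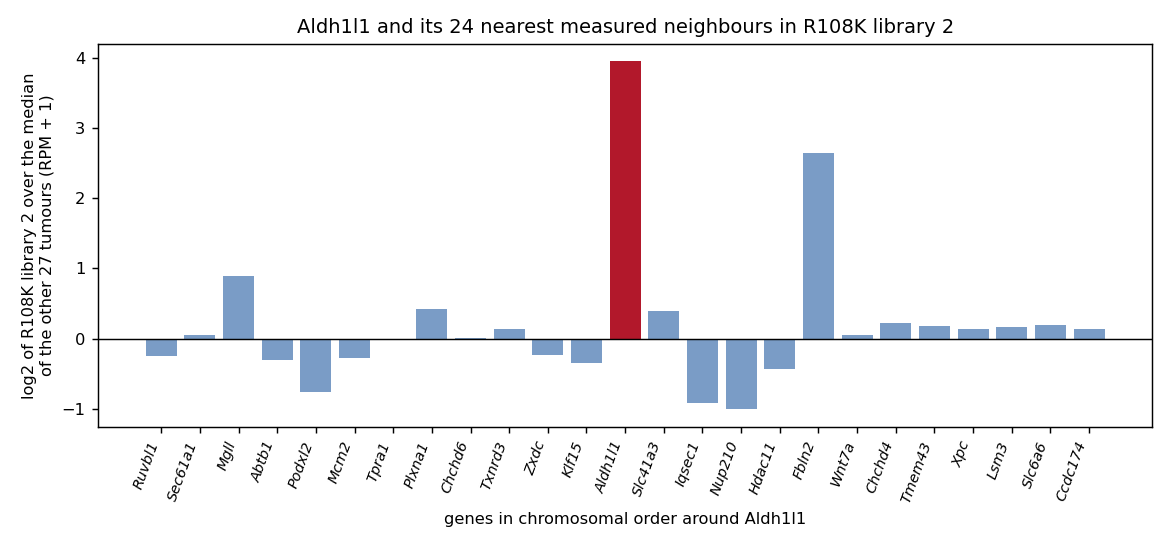
Bars give the log2 ratio of R108K library 2 to the median of the other 27 tumours for Aldh1l1 (red) and its 24 nearest measured genes in chromosomal order. Aldh1l1 stands at 3.95 and Fbln2 at 2.64, and the other bars stay between -1.01 and 0.89.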

How the data were processed

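Bulk RNA of 28 tumours and 2 cortex samples was read from stranded poly(A) libraries, per the labels' protocols. The authors deposited 1 signal per gene and library in tables named RPM. The submitters' processing notes name FastQC, STAR 2.5.0a, DESeq2 1.20.0 and mm10 without roles; the counter and annotation are not given in the sources used here. The deposited signal proved to be read counts divided by a size factor per library (100% of values whole within 0.05 read), so it was divided by 10.2638 for all libraries to give RPM. The design had assumed RPM, and the test was kept.

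Groups came from the titles and variant labels. limma 3.58.1 in R 4.3.3 (eBayes with trend and robust) fitted 9 group means to log2(RPM + 1) of 15824 genes over all 30 libraries, two-sided, for 19 comparisons and an F-test, with Benjamini-Hochberg adjustment within each. Alternatives were a pseudocount of 0.1 RPM, no filter, TMM rescaling, the quasi-likelihood test of edgeR 4.0.16 and the Wald test of DESeq2 1.42.0 (likelihood ratio test for the F-test), each on recovered reads, a term for 3 library ranges, comparison within ranges, the neuron mean as covariate, 2 sets of libraries left out, and each library left out. Fits were tested on simulated data. The related-gene lists gave up to 4 called genes of largest change against cortex and up to 3 elsewhere, some of which are not reported here, and likeness was Pearson's r over 28 tumours. The 9 genes and all lists were chosen with earlier results of these data known. Positions are from GENCODE M21. Python 3.11.15 was used for the other values.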

Additional observations from a re-analysis of the deposited data

Results flagged for a closer look

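Aldh1l1 in R108K library 2, at 795 RPM, was far from the other 3 libraries of its group, which had 15.8 to 18.0 RPM. The gap took up most of the group's range. Groups of 4 or 5 libraries were checked for the 9 genes, 27 checks in all, of which chance flags about 1 in 20, and this was the only hit. Its neighbours on the chromosome and the other 8 genes are described above, and the cause was not tested.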

How the results depend on the processing

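Of 13 differences called by limma, 12 were lost in at least 1 alternative, and Aldoc in mCherry against cortex was kept in all 13 of its own. Of the 158 not called, 13 passed in some alternative and 77 changed sign in at least 1, most often in Gfap, Aqp4, Aldh1l1 and Fgfr3. With the neuron mean as covariate, 1 member was called in tumours against cortex (4 as reported), and 0 in A289V against wild-type EGFR (4), A289V against mCherry (1) and the F-test (4), and Slc1a2 in A289V against wild-type EGFR reversed to -0.01801. Without A289V libraries 1 and 2, the last 3 of these also gave 0. Without the 3 tumours of very high Met, 0 were called in A289I against mCherry (1 as reported), A289V against mCherry and A289V against wild-type EGFR. The term for 3 ranges gave 0 in A289I and A289V against mCherry, 2 in A289V against wild-type EGFR and 2 in the F-test, and comparison within ranges gave 0, 0 and 1 for the first 3. A289I against mCherry gave 0 with no filter and with edgeR. DESeq2 called 2 in A289V against mCherry, 3 in A289I against wild-type EGFR (0 as reported), and 1 (0 as reported) in the pooled receptor forms and R222C against mCherry and in the pooled variants and R222C against wild-type EGFR. The cause of these changes was not tested. Apart from the counts by tool that follow, the share of all tested genes called in each alternative is not given here. The counts of members in the alternatives are therefore descriptive and say nothing particular of these genes. Calls over all genes also moved with the tool: limma, edgeR and DESeq2 called 96, 1 and 350 genes in A289I against mCherry, 777, 334 and 1729 in A289V against mCherry, and 1633, 2225 and 4223 in the F-test.

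Leaving out each library in turn gave 3 to 6 called members in tumours against cortex, 3 to 4 in mCherry against cortex, 0 to 1 in the pooled receptor forms, A289I and R108K against mCherry, 0 to 2 in A289V against mCherry, 0 to 1 in A289I and 0 to 4 in A289V against wild-type EGFR, and 1 to 5 in the F-test. Without R108K library 2, 6 members passed in tumours against cortex by limma. Aldoc then also passed in the pooled receptor forms (adjusted p = 0.00715) and in R108K (0.0344) against mCherry by limma. The share of all tested genes called with each library left out is not given here, so these counts of members are descriptive only. A289V library 1 or 2 left out gave 0 in A289V against wild-type EGFR, as did wild-type EGFR library 2. The lone library left where a range holds 1 was taken to vary as much as the rest. No paired analysis was possible because the labels give no replicate numbers shared between groups. Depth was not the main limit for the 9 genes. Their lowest level, 10.9 RPM of Aldh1l1 in wild-type EGFR library 2, came from 91 reads. R108K libraries 1 and 4, where 1 read was worth 0.383 and 0.189 RPM, had fewer reads of Aldh1l1 at higher RPM. The 2 cortex libraries and 3 to 5 tumours per group limit every comparison.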
